A study of Mus musculus with 20 samples.

Results

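A set of 10 genes that mark preadipocytes and fibroblasts was described across mouse pituitary and inguinal white adipose tissue (iWAT, the fat depot under the skin of the groin): Pdgfra, Pdgfrb, Dpp4, Pi16, Cd34, Ly6a, Dcn, Lum, Fn1 and Thy1. They were chosen by name, and all 10 of 10 were found among the 24062 genes counted in every library. RNA with a poly(A) tail had been sequenced from male C57BL/6N mice fed chow, aged 18 to 21 weeks, in 20 libraries. Each tissue had 5 libraries labelled wild type (WT) and 5 labelled KLF14 KO, from a study of mice with the gene for the transcription factor KLF14 deleted in the germline. No other allele or treatment was named for any group, and the library numbers used here are those in the sample titles. Whether the 5 libraries of a group stand for 5 animals is not stated. The labelled ages differ within each group, so its libraries are not all from the same animal. The p-values below therefore speak of library-to-library spread, which may be technical in part.

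White fat holds, beside its lipid-filled adipocytes, a stroma of fibroblast-like cells from which new adipocytes form. In mouse subcutaneous fat, cells with the surface proteins DPP4 and PI16 are known as interstitial progenitors that lie upstream of more committed preadipocytes, and PDGFRA is carried by both. In the anterior pituitary, hormone cells make up most of the gland, and fibroblasts, pericytes and other stromal cells line its capillaries.

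The 10 genes fall into 4 roles. Pdgfra and Pdgfrb encode the receptor tyrosine kinases for platelet-derived growth factors, and PDGFRB is also the classical receptor of pericytes. Dpp4 (a surface peptidase) and Pi16 (a secreted and membrane-bound peptidase inhibitor) are used as progenitor markers. So are Cd34 (a sialomucin also found on endothelium) and Ly6a (the stem cell antigen SCA-1). Which cells of a tissue piece carried these genes was not tested. Dcn and Lum encode decorin and lumican, small leucine-rich proteoglycans that bind collagen fibrils, and Fn1 encodes fibronectin, an adhesive glycoprotein of the matrix. Thy1 encodes the surface protein CD90, which fibroblasts share with T cells and neurons.

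KLF proteins bind CACCC and GC-rich elements, so the stretch before the gene start is shown for 3 progenitor markers. Dpp4 and Pi16 are used as markers of the same progenitor. The level of Cd34 followed that of Pi16 most closely in fat (values below). RefSeq entries (GRCm38.p6) were used for 4 of the 10 genes, of which Pdgfra is not shown. The other markers, Pdgfrb among them, were not searched. Each run holds the 250 bases before the start, 5′ to 3′ on the strand of the gene. Capitals mark CACCC (or GGGTG on the other strand) and TATAAA.
Dpp4, chr2:62412232-62412481, minus strand: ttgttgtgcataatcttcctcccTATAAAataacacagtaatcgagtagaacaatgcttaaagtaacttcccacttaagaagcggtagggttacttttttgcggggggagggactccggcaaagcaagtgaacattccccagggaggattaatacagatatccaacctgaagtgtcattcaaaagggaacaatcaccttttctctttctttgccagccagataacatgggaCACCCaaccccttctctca
Pi16, chr17:29318632-29318881, plus strand: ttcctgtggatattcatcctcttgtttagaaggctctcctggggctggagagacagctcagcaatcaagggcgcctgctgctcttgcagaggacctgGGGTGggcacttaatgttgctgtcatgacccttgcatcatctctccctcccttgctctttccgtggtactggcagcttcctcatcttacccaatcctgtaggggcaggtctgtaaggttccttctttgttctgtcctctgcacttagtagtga
Cd34, chr1:194938571-194938820, plus strand: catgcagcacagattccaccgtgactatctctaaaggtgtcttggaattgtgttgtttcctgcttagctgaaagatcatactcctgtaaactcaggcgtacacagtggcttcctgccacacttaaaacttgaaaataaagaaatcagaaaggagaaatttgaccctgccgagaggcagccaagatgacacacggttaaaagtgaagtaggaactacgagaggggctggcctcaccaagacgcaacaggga
CACCC was searched on both strands. It occurred 1 time before Dpp4, with its first base at -19 from the start, and 1 time before Pi16, on the other strand, at -153. It occurred 2 times before Pdgfra, side by side at -192 and -187, and 0 times before Cd34. Of all 32851 promoter windows of this length, 52.0% held CACCC on either strand. TATAAA was found 1 time, at -227 before Dpp4, against 12.4% of all windows, and GGGCGG before none of the 4 genes, against 32.7%. These are letter matches, not binding sites.

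The libraries held 13.6 to 17.6 M (mega) counts in the pituitary and 14.8 to 18.7 M in iWAT. In the pituitary the label check went against the labels. Klf14 stood at 30.2 to 38.0 counts per mega-count (CPM) in the 5 pituitary libraries labelled KO and at 13.9 to 18.8 CPM in the 5 labelled WT (2.01-fold, adjusted p = 7.64e-05, edgeR). In iWAT it had only 8 to 46 counts in the libraries labelled KO and 1 to 49 in those labelled WT, so the check could not be read there. Every direction below is therefore between libraries as labelled. The tissue labels held: Adipoq, the adipocyte hormone adiponectin, was at 645.2 CPM or more in iWAT and at 0.0652 CPM or less in the pituitary, and Gh, growth hormone, was at 72075 CPM or more in the pituitary. Gh reached 91.4 CPM in iWAT library 32, labelled KO, against 0.954 CPM or less in the other iWAT libraries. That is 0.0935% of the mean pituitary level. Scaled by that share, pituitary Dcn would add 0.115 CPM.

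In iWAT, decorin was the most abundant of the 10 markers and Dpp4 the least, on a scale per gene length (RPKM, reads per kilobase of exon per mega-count). The mean level over the 10 iWAT libraries was 361.5 ± 132 RPKM for Dcn, 156 ± 61.6 RPKM for Ly6a, 65.3 ± 37.3 RPKM for Fn1 and 38.4 ± 15.3 RPKM for Cd34 (SD, n = 10). Each of these 4 exceeded the next in 10 of 10 libraries, although the ranges of neighbours overlapped. Pi16, Thy1 and Lum were level at 30.0 RPKM each, with SDs of 17.4, 12.9 and 16.8 RPKM. Pdgfra followed at 26.0 ± 7.52 RPKM, Pdgfrb at 24.5 ± 4.93 RPKM and Dpp4 at 17.2 ± 4.23 RPKM. From Pi16 down to Pdgfrb, each gene exceeded its next neighbour in only 5 or 6 of 10 libraries, so the order there lies within the spread. Pdgfrb exceeded Dpp4 in 8 of 10.

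The pituitary order differed mainly in the place of Thy1, Fn1 and Pdgfrb. Dcn again led at 58.8 ± 7.35 RPKM, followed by Thy1 at 30.4 ± 3.90 RPKM and Ly6a at 17.5 ± 3.77 RPKM (SD, n = 10), and the ranges of these 3 did not overlap. Pdgfrb stood at 12.1 ± 1.19 RPKM, above Pdgfra at 6.76 ± 0.955 RPKM, the reverse of the order of their means in fat. Lum lay between them at 9.11 ± 1.79 RPKM. Cd34 was at 5.02 ± 0.478 RPKM, Pi16 at 2.14 ± 0.694 RPKM and Fn1 at 1.21 ± 0.327 RPKM. Dpp4 was lowest at 0.495 ± 0.104 RPKM, which rested on 37 to 72 counts per library. Ly6a and Pdgfrb, and Pdgfrb and Lum, kept their order in 8 of 10 libraries, and all other neighbours in 10 of 10.

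**Figure D1:**
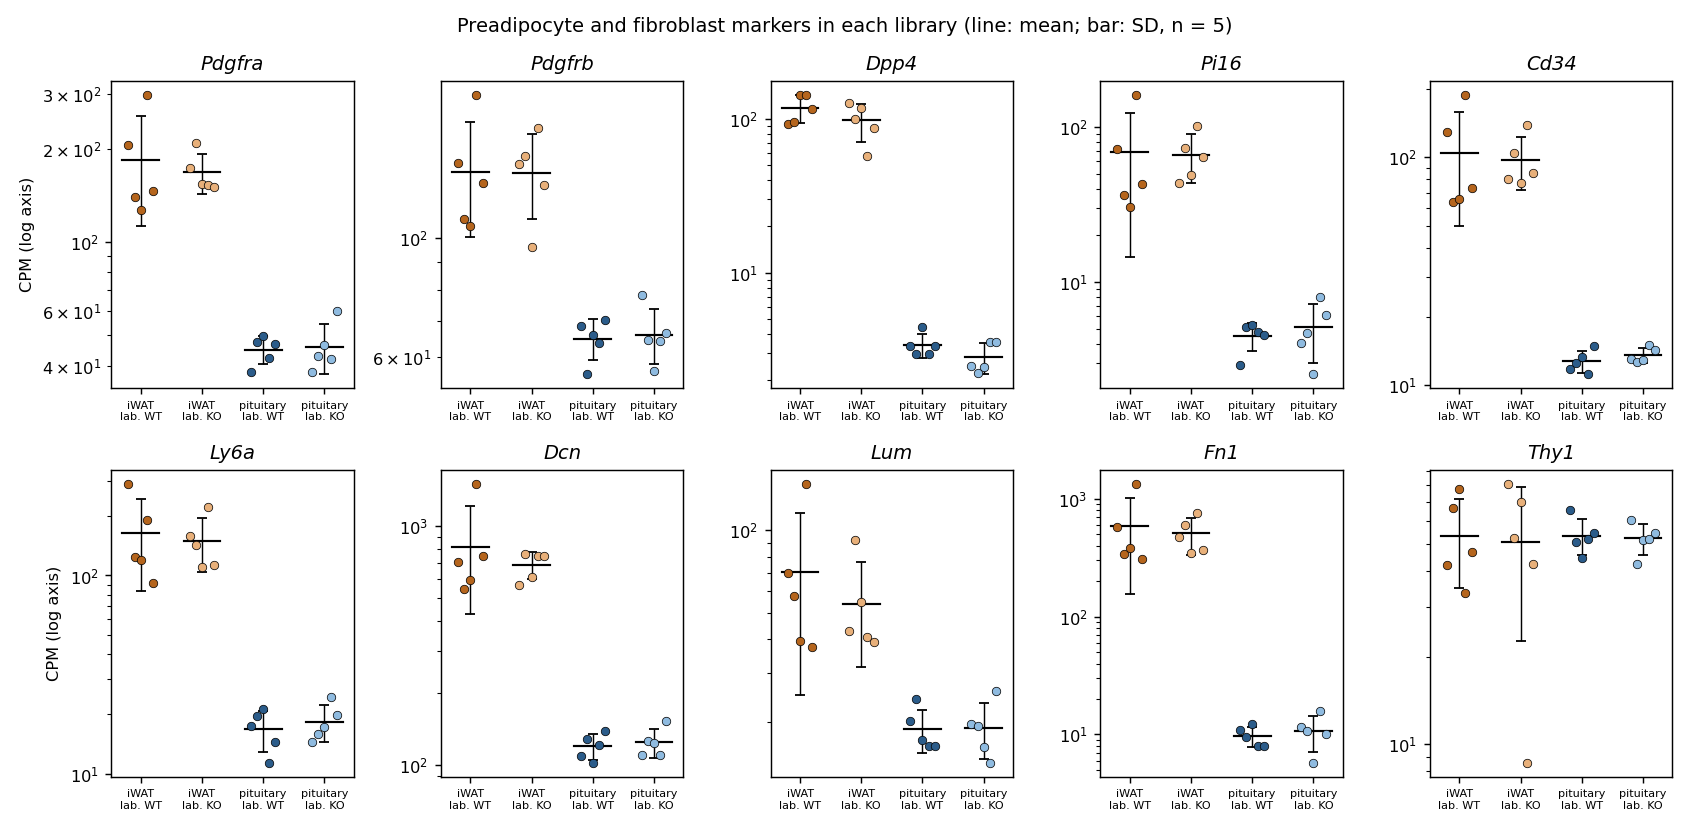
Level of each marker in CPM (log axis) in the 5 libraries of each group. Points are libraries, lines are means and bars are SDs. Except for Thy1, every iWAT library lies above every pituitary library, while the labelled WT and labelled KO points of a tissue overlap for all 10 genes.

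In all, 9 of the 10 markers were higher in iWAT than in the pituitary, and Thy1 was the exception. This held in the libraries labelled WT and again in those labelled KO, and for each of the 9 genes no iWAT library overlapped a pituitary library. In the labelled WT libraries 38.9% of the 17023 genes tested were called higher in iWAT and 34% were higher without overlap. In the labelled KO libraries the shares were 37.8% and 30.3% of 16905 genes. The median log2 fold change of the 10 markers was 3.0 (labelled WT) and 2.8 (labelled KO), against -0.012 and 0.024 over all genes tested. Levels in CPM below are scaled within a tissue, and fold changes come from a fit over both tissues. In tissue pieces, fewer cells of a type and less RNA per cell cannot be told apart.

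Of the receptors, Pdgfra differed more between the tissues than Pdgfrb. Pdgfra was at 206, 139, 127, 298 and 146 CPM in the labelled WT iWAT libraries 33, 34, 48, 49 and 56, and at 38.2 to 49.9 CPM in the labelled WT pituitary. It was at 173, 209, 153, 153 and 150.1 CPM in the labelled KO iWAT libraries 31, 32, 35, 50 and 66, and at 38.2 to 60.0 CPM in the labelled KO pituitary. Its log2 fold change was 2.13 ± 0.22 (SE), or 4.37-fold, in the labelled WT libraries (adjusted p = 4.25e-06, edgeR) and 2.01 ± 0.14 in the labelled KO libraries (adjusted p = 3.16e-07). For Pdgfrb the log2 fold changes were 1.14 ± 0.15 (2.20-fold, adjusted p = 2.41e-05) and 1.15 ± 0.14 (adjusted p = 2.4e-05). The within-library ratio of Pdgfrb to Pdgfra in CPM was 0.622 to 1.05 in iWAT and 1.11 to 2.04 in the pituitary, so the ranges did not overlap.

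Dpp4 showed the second-largest difference of the 10 genes. It was at 93.7, 96.1, 144, 143 and 116 CPM in the labelled WT iWAT libraries (33, 34, 48, 49, 56) and at 3.34, 2.97, 4.42, 2.95 and 3.33 CPM in the labelled WT pituitary libraries of the same numbers. The log2 fold change was 5.22 ± 0.18, or 37.2-fold (adjusted p = 6.58e-10), and 5.26 ± 0.25 in the labelled KO libraries (adjusted p = 2.03e-08). Pi16 rose 16.3-fold from pituitary to iWAT in the labelled WT libraries (log2 4.03 ± 0.48, adjusted p = 1.3e-05), Ly6a 10.4-fold (3.38 ± 0.32, adjusted p = 1.84e-06) and Cd34 8.76-fold (3.13 ± 0.31, adjusted p = 2.8e-06). In the labelled KO libraries the log2 values were 3.86 for Pi16, 3.18 for Ly6a and 2.99 for Cd34, with adjusted p of 1.83e-06, 4.81e-07 and 8.05e-08.

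Fibronectin had the largest difference. Fn1 was at 573, 337, 385, 1346 and 311 CPM in the labelled WT iWAT libraries (33, 34, 48, 49, 56) and at 10.9, 9.48, 12.1, 7.91 and 8.01 CPM in the labelled WT pituitary. The log2 fold change was 6.03 ± 0.47, or 65.3-fold (adjusted p = 3.55e-07). It was 5.72 ± 0.34, or 52.7-fold, in the labelled KO libraries (adjusted p = 8.97e-08), and 5.42 in the labelled WT libraries without number 49, the library with the highest iWAT value. The proteoglycans differed less: Dcn 7.31-fold and Lum 4.03-fold in the labelled WT libraries (log2 2.87 ± 0.27 and 2.01 ± 0.36, adjusted p = 1.53e-06 and 3.02e-04), and log2 2.61 and 1.65 in the labelled KO libraries (adjusted p = 1.89e-08 and 1.64e-04). The ratio of Lum to Dcn in CPM was 0.05 to 0.121 in iWAT and 0.117 to 0.188 in the pituitary.

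Thy1 did not pass the test in either fit. Its log2 fold change was 0.10 ± 0.21 in the labelled WT libraries (95% interval -0.36 to 0.57, adjusted p = 0.673) and 0.11 ± 0.43 in the labelled KO libraries (-0.84 to 1.06, adjusted p = 0.83), and its sign turned without number 48 (labelled WT) and without number 31 or 35 (labelled KO). It was at 44.4 to 65.3 CPM in the labelled WT pituitary and 42.3 to 60.6 CPM in the labelled KO pituitary. In iWAT it ran from 8.58 to 81.0 CPM, so the iWAT range enclosed that of the gland. Markers of 2 other Thy1-bearing cell types differed between the tissues: the 12 lymphocyte genes summed to 21.2 to 1448 CPM in iWAT and 23.9 to 35.2 CPM in the pituitary, and the 9 posterior lobe and neuron genes to 3.28 to 16.03 CPM and 622 to 754 CPM. Their part in the Thy1 values was not tested.

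**Figure D2:**
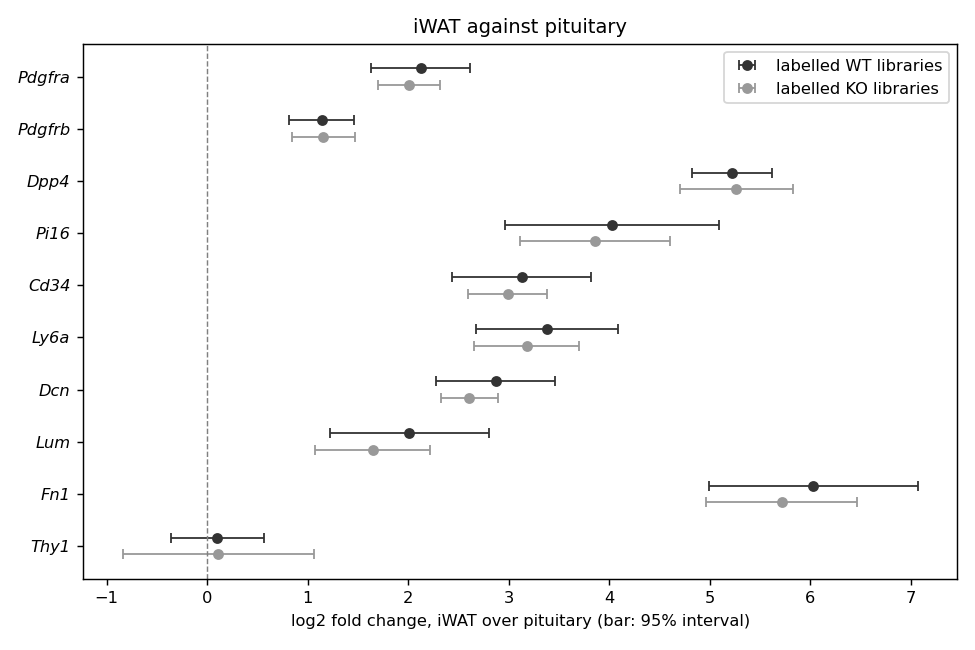
Log2 fold change of iWAT over pituitary for each marker, fitted in the labelled WT libraries (dark) and the labelled KO libraries (grey), with 95% intervals. The intervals of 9 genes lie above 0 in both fits, from Pdgfrb near 1 to Fn1 near 6, and those of Thy1 span 0.

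Related genes from lists of fat and stromal biology mostly moved the same way between the tissues. Of 12 further interstitial progenitor genes, 11 were higher and 1 was lower in labelled WT iWAT (median log2 3.4). Cd55, a complement regulator that marks these cells, was higher by 5.22 and Ly6c1 by 4.32. The exception was Uchl1, a deubiquitinase abundant in neurons and endocrine cells, at -5.73. Of 12 committed preadipocyte genes, 10 were higher and 1 was lower (median 4.1): the fatty acid binding protein gene Fabp4 was higher by 11.02 and lipoprotein lipase, Lpl, by 7.27, while Dlk1, the preadipocyte factor that pituitary hormone cells also make, was at -9.49. Because adipocytes express Fabp4 and Lpl too, this list does not separate the 2 cell types. Of 8 genes of the CD142-positive regulatory stroma, 5 were higher and 2 lower, among them Mgp, matrix Gla protein, at -1.87.

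The ligands of the receptors were split. Of the 4 PDGF genes, 3 were higher in labelled WT iWAT and 1 was lower. Pdgfb was higher by 1.44 (log2) and Pdgfa by 0.80, and Pdgfd, a ligand of PDGFRB, was lower at -1.01. Of the other small leucine-rich proteoglycan genes 8 of 10 were tested, with 7 higher and 0 lower, and biglycan (Bgn) was higher by 2.56. Of 8 fibronectin-binding integrin genes, 4 were higher and 1 was lower in the labelled WT libraries, where Itgb1, the common beta subunit, had 0.27 (adjusted p = 0.0785), and 6 were higher and 2 lower in the labelled KO libraries. Of 14 pan-fibroblast genes, 12 were higher and 1 was lower: Gsn, gelsolin, rose by 6.11 and the collagen gene Col3a1 by 6.14, while Tcf21, a mesenchymal transcription factor named after its value was seen, was at -7.38. Of 10 mural cell genes, 9 were higher and 0 lower, with Mcam at 4.64 and Rgs5, the pericyte marker that missed the threshold, at 0.20 (adjusted p = 0.217).

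None of the 10 markers passed the test between labelled KO and labelled WT in iWAT. The count was 0 of 10, against 0% of the 16105 genes tested (edgeR quasi-likelihood test, Benjamini-Hochberg adjustment), and DESeq2 and limma voom called 0 genes as well. At an unadjusted p under 0.05 stood 0 of 10 markers and 89 genes, where 805 would be 5 in 100. No marker separated the groups without overlap, which 13 genes did (0.0807%).

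The fitted log2 fold changes in iWAT (labelled KO over labelled WT) were all at or below 0. They ran from -0.38 ± 0.40 (SE) for Lum (95% interval -1.28 to 0.51) over -0.27 ± 0.22 for Dpp4 (-0.75 to 0.22), -0.25 ± 0.27 for Dcn and -0.21 ± 0.42 for Fn1 to -0.002 ± 0.18 for Pdgfrb (-0.40 to 0.40). Pdgfra had -0.13, Ly6a -0.12, Cd34 -0.10, Thy1 -0.067 and Pi16 -0.045, and the adjusted p was 1 for all 10. The median was -0.13, against -0.0002 over all genes tested. This shared sign rested on 1 library: without labelled WT library 49, 7 of the 10 values were positive, 3 were negative and the median was 0.10. Of the labelled KO libraries 4 of 5 were from mice aged 21 weeks, and of the labelled WT libraries 2 of 5. Among mice of 21 weeks alone 5 values were positive and 5 negative.

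In the pituitary 0 of 10 markers were called, against 0.549% of the 16389 genes tested (90 genes). None of the 10 had an unadjusted p under 0.05, against 1792 genes, DESeq2 and limma voom called none of the 10, and none separated the groups, which 2.83% of genes did. Dpp4 had the lowest adjusted p of the 10: it was at 3.34, 2.97, 4.42, 2.95 and 3.33 CPM in the labelled WT libraries (33, 34, 48, 49, 56) and at 2.46, 2.23, 2.42, 3.56 and 3.52 CPM in the labelled KO libraries (31, 32, 35, 50, 66). The groups overlapped, with 3 labelled KO libraries below and 2 within the labelled WT range. Its log2 fold change was -0.27 ± 0.18 (-0.66 to 0.12, adjusted p = 0.643). The other values ran from -0.034 ± 0.11 for Thy1 to 0.16 ± 0.26 for Pi16, with a median over the 10 of 0.041, against 0.0036 over all genes. The intervals were narrower than in fat: for Pdgfrb -0.15 to 0.20, for Cd34 -0.11 to 0.29 and for Dcn -0.17 to 0.27.

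The test of whether the labelled KO effect differed between the tissues called 0 of 10 markers and 0% of 17731 genes (edgeR). At an unadjusted p under 0.05 stood 0 of 10 markers and 427 genes, and DESeq2 called 1 gene and none of the 10. The difference (iWAT minus pituitary) ran from -0.38 for Lum to 0.033 for Dpp4.

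**Figure D3:**
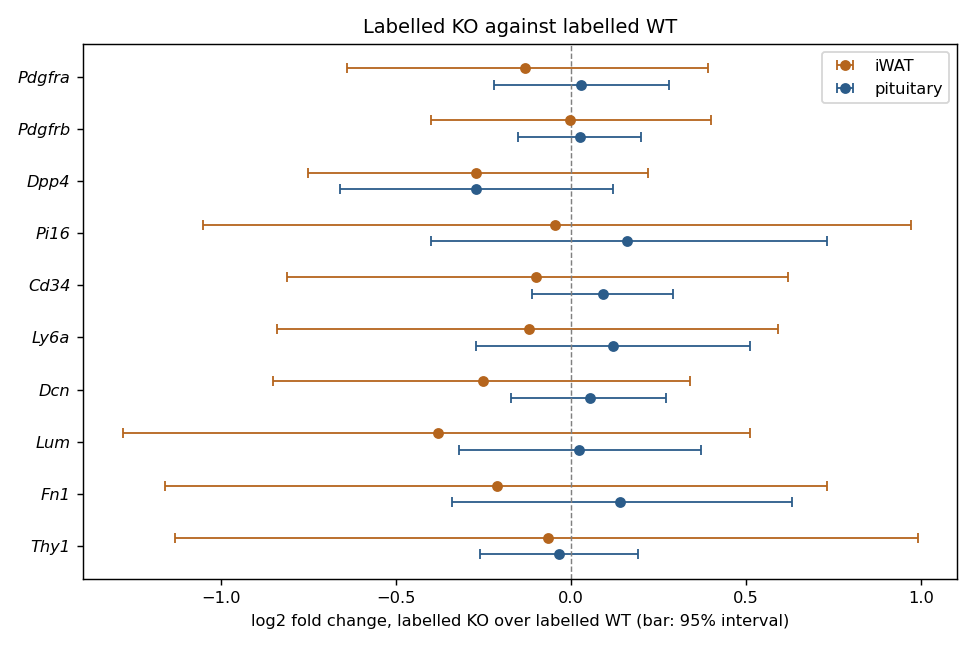
Log2 fold change of labelled KO over labelled WT for each marker in iWAT (brown) and pituitary (blue), with 95% intervals. All 20 intervals span 0, and those of the pituitary are the narrower ones.

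The lists around the markers gave no call between labelled KO and labelled WT either. In iWAT 0 of 12 interstitial progenitor genes (median log2 -0.020), 0 of 12 committed preadipocyte genes (0.088), 0 of 4 PDGF ligand genes (0.077) and 0 of 13 tested pan-fibroblast genes (-0.075) passed. In the pituitary the counts were 0 of 10 tested interstitial progenitor, 0 of 12, 0 of 4 and 0 of 13, and the lowest adjusted p of these lists was that of Col1a2, a type I collagen chain, at 0.0535 (log2 -0.36). In iWAT 5 lists of other cell types held fold changes of 1 sign, with 0 genes called and 0 at an unadjusted p under 0.05 (edgeR). All 10 skeletal muscle genes had positive log2 fold changes (median 1.2, summed 17.0 to 513 CPM in labelled KO against 19.0 to 141 CPM in labelled WT). All 8 tested macrophage genes had negative ones (median -0.26, summed 966 to 1341 CPM against 948 to 2034 CPM). The 5 blood genes had positive values (median 0.35, summed 1182 to 7134 CPM against 898 to 3828 CPM). The 7 Schwann cell genes (median -0.17, 204 to 346 CPM against 221 to 575 CPM) and the 5 tested of 8 epithelial genes (median -1.1, 5.02 to 122 CPM against 5.22 to 249 CPM) had negative ones. Their part in the marker values was not tested.

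Each of the 10 markers had a larger coefficient of variation over the 10 iWAT libraries than over the pituitary libraries, and 7 of them also without libraries 49 and 50. It was 20.1% (Pdgfrb) to 58.0% (Pi16) in iWAT and 9.52% (Cd34) to 32.4% (Pi16) in the pituitary. The biological coefficient of variation fitted by edgeR had a median of 0.362 over the 10 markers in iWAT, against 0.221 over all genes, and of 0.144 against 0.095 in the pituitary. The ratio of the highest to the lowest iWAT library was 9.44 for Thy1, 5.27 for Pi16, 4.32 for Fn1 and 1.92 for Pdgfrb. The first 3 ratios were smaller without single libraries, an alternative chosen after the values were seen: without library 50 the ratio of Thy1 was 2.42 and that of Dpp4 1.63 in place of 2.49, and without library 49 that of Fn1 was 2.43, of Pi16 3.34 and of Lum 2.46. Without library 49 the coefficient of variation of Dcn was 13.3%, against 12.5% in the pituitary. Without libraries 49 and 50 this coefficient was larger in iWAT for 7 of 10 markers, and smaller for Dpp4 (17.5% against 21.1%), Pi16 (31.6% against 32.4%) and Fn1 (26.4% against 26.9%).

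One iWAT library, number 49, labelled WT, had the highest value for 7 of the 10 markers: Pdgfra, Pdgfrb, Pi16, Cd34, Dcn, Lum and Fn1. Dcn was at 1499 CPM there, against 546 to 766 CPM in the other 9 iWAT libraries, and Lum at 148 CPM against 37.6 to 92.5 CPM. Pi16 was at 161 CPM there, and at 72.0, 36.6, 30.5 and 42.5 CPM in labelled WT libraries 33, 34, 48 and 56. In the labelled KO libraries 31, 32, 35, 50 and 66 it was at 43.8, 72.7, 49.0, 102 and 64.4 CPM, all inside the labelled WT range. In library 49 the summed macrophage genes (2034 CPM) and Schwann cell genes (575 CPM) were also the highest of the 10, and the summed lymphocyte genes (373 CPM) the second-lowest. What part these had in its marker values was not tested.

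**Figure D4:**
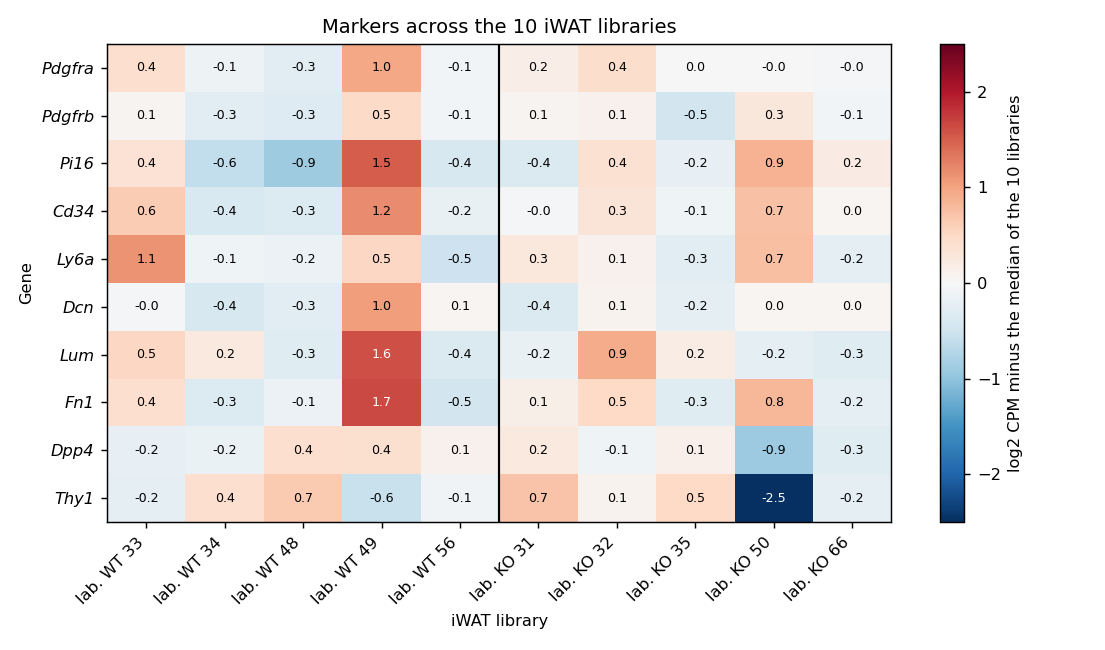
Log2 CPM of each marker in each iWAT library minus the median of the 10 libraries, labelled WT on the left and labelled KO on the right of the line. Labelled WT 49 is high for 7 genes at once, and labelled KO 50 is low for Thy1 and Dpp4 and high for Pi16, Cd34, Ly6a and Fn1.

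Many pairs of markers were correlated across the 10 iWAT libraries, but which pairs passed depended on library 49. Among the 45 pairs, 18 had a correlation past the threshold, all 18 positive (permutation test of Pearson's r, two-sided, Benjamini-Hochberg over 45), and none of these 18 held Dpp4 or Thy1. The closest pair was Pi16 and Cd34: r = 0.97 (permutation p = 2e-05, adjusted p = 9e-04) and rho = 0.96 (permutation p = 8e-05, adjusted p = 0.0036), with r = 0.94 without libraries 48 and 49. Cd34 and Fn1 followed with r = 0.94 (permutation p = 3.4e-04, adjusted p = 0.0057) and rho = 0.87 (permutation p = 0.00209, adjusted p = 0.0425), with r = 0.81 without libraries 49 and 50. Libraries share their depth and the mix of cells in the piece of fat, and these pairs were computed after the levels had been seen.

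Several of the other pairs rested on library 49. For Dcn and Fn1, r was 0.80 (permutation p = 0.0134, adjusted p = 0.0378) and rho 0.49 (permutation p = 0.153, adjusted p = 0.232), and r fell to 0.28 without libraries 34 and 49. For Pdgfra and Dcn it was 0.81 (permutation p = 0.0154, adjusted p = 0.0408), with rho 0.54 (permutation p = 0.115, adjusted p = 0.191), and 0.22 without libraries 32 and 49. Without library 49 alone, 8 pairs passed in place of 18, and 3 of the 8 were among the 18: Pi16 and Cd34 (r = 0.94, exact permutation p = 4.13e-05), Cd34 and Fn1 (0.89) and Cd34 and Ly6a (0.83). Of the 8 pairs 4 held Dpp4 or Thy1, and 3 of those were negative: Dpp4 and Pi16 (-0.83), Pi16 and Thy1 (-0.79) and Cd34 and Thy1 (-0.75), beside a positive one of Dpp4 and Thy1 (0.91). Without library 50 alone, 21 pairs passed, 16 of them among the 18, and the 3 that held Thy1 were negative, with Pi16 (-0.82), Cd34 (-0.77) and Dcn (-0.82). Without library 48 alone, 11 pairs passed. In the pituitary 0 of 45 pairs passed and 2 had an unadjusted permutation p under 0.05, with r from -0.46 to 0.65.

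The correlation of Dpp4 and Pi16, markers of the same progenitor, did not pass the threshold over the 10 fat libraries and turned with the library left out. It was r = -0.28 (permutation p = 0.427, adjusted p = 0.519) and rho = -0.33 (permutation p = 0.348, adjusted p = 0.449), and r was 0.32 without libraries 48 and 50. Without library 49 alone it passed, with r = -0.83 (exact permutation p = 0.00431, adjusted p = 0.0384), and without library 50 alone r was 0.014, which did not pass. The ratio of Pi16 to Dpp4 in CPM was 0.768, 0.381, 0.212, 1.13 and 0.366 in the labelled WT libraries 33, 34, 48, 49 and 56. In the labelled KO libraries 31, 32, 35, 50 and 66 it was 0.341, 0.725, 0.413, 1.77 and 0.732. Libraries 49 and 50 held the only ratios above 1, and the groups overlapped. In the pituitary the ratio was 0.870 to 2.26.

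Thy1 rose with the lymphocyte genes of the fat samples and fell with the endothelial genes and, by rank, with the adipocyte genes (values below). It was at 42.0, 66.4, 77.8, 33.5 and 46.7 CPM in the labelled WT iWAT libraries 33, 34, 48, 49 and 56, and at 81.0, 52.3, 69.8, 8.58 and 42.3 CPM in the labelled KO libraries 31, 32, 35, 50 and 66. Library 50 was the low one, and there the 12 lymphocyte genes, which include Cd3e of T cells and Cd79a of B cells, summed to 21.2 CPM, against 373 to 1448 CPM in the other 9. The inguinal depot encloses a lymph node, and how much of it each sample held was not tested. With the lymphocyte score (mean log2 CPM of the 12 genes) Thy1 had r = 0.96 (permutation p = 4.6e-04, adjusted p = 0.0092 over 40 relations) and rho = 0.90 (permutation p = 8.8e-04, adjusted p = 0.0117).

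The relation kept its sign without the extreme libraries. Without libraries 49 and 50, r was 0.73, and within the 5 labelled WT libraries it was 0.85 and within the 5 labelled KO libraries 0.98. Without library 50 alone it was 0.82 (exact permutation p = 0.00402, adjusted p = 0.023). By Pearson's r, Thy1 was also the 1 marker with a negative relation past the threshold. With the endothelial score it had r = -0.85 (permutation p = 8e-05, adjusted p = 0.0032) and rho = -0.93 (permutation p = 3e-04, adjusted p = 0.006), and r = -0.93 without libraries 31 and 50. That call was lost without labelled KO library 35 (adjusted p = 0.0557). These were the 2 relations of 40 that passed by Pearson's r, and 13 had an unadjusted permutation p under 0.05. The number past the threshold was 10 without library 50, 8 without library 49 and 1 without library 35. With the adipocyte score Thy1 had r = -0.74 (permutation p = 0.0205, adjusted p = 0.116) and rho = -0.94 (permutation p = 2.4e-04, adjusted p = 0.006). The rank correlation thus passed, and without library 50 alone r also did, at -0.81 (exact permutation p = 0.00277, adjusted p = 0.0221).

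Against the lymphocyte score Dpp4 had a positive and Pi16 a negative correlation. Dpp4 was at 57.8 CPM in library 50 and at 87.9 to 144 CPM in the other 9. It had r = 0.75 with the lymphocyte score (permutation p = 0.0439, adjusted p = 0.135) and rho = 0.55 (permutation p = 0.106, adjusted p = 0.184), with r = 0.84 without libraries 49 and 50. Without library 49 alone it passed, with r = 0.88 (exact permutation p = 6.01e-04, adjusted p = 0.012). Without library 50 alone r was 0.074 (exact permutation p = 0.86), and within the 5 labelled WT libraries it was -0.09. Which cells of the depot carried the Dpp4 counts was not tested. Pi16 had r = -0.63 (permutation p = 0.0607, adjusted p = 0.162) and rho = -0.84 (permutation p = 0.00356, adjusted p = 0.0356), with r = -0.79 without the same libraries. Neither Pearson's r passed over the 40 relations, and the rank correlation of Pi16 did. Without library 50 the relations with the lymphocyte score past the threshold were those of Pdgfra (r = -0.88), Pi16 (-0.92), Cd34 (-0.89), Dcn (-0.86), Lum (-0.91), Fn1 (-0.84) and Thy1 (0.82). Without library 49 they were those of Pi16 (-0.74), Cd34 (-0.71), Fn1 (-0.72), Dpp4 (0.88) and Thy1 (0.96). Pi16, Cd34 and Fn1 were thus negative and Thy1 positive past the threshold in both cases, and Dpp4 in 1. The 2 cases share 8 libraries and are not independent. Of the 10 fits with a single library left out, they gave the most relations past the threshold. In 7 of the 10 the number was about that over all libraries. Over all 10 libraries Pearson's r of Pi16, Cd34 and Fn1 did not pass (permutation test, adjusted p = 0.162, 0.152 and 0.205).

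**Figure D5:**
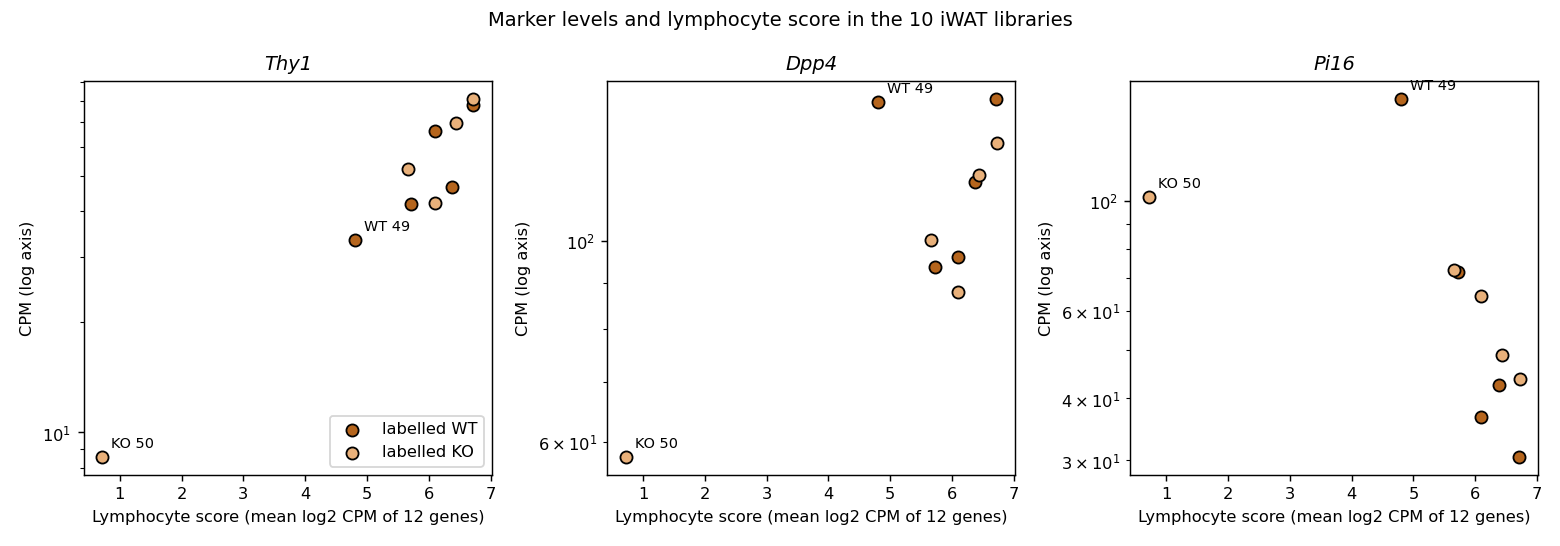
Level of Thy1, Dpp4 and Pi16 in CPM (log axis) against the lymphocyte score in the 10 iWAT libraries, labelled WT dark and labelled KO light. Thy1 is higher where the score is higher, with r = 0.96, and labelled KO 50 lies far to the left at a score of 0.72, against 4.80 to 6.72 in the others.

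The genes most like the mean of the 10 markers over the iWAT libraries, among 12504 with a mean of at least 5 CPM, were Islr (r = 0.976), Mxra8 (0.958), Reps2 (0.953), Itgbl1 (0.945) and Cercam (0.943). Islr encodes a secreted leucine-rich protein of mesenchymal cells and ranged from 13.2 to 44.7 CPM. Over the 10 pituitary libraries they were Arhgap31 (0.947), Sf3b4 (0.922), Asxl3 (0.922), Gramd4 (0.917) and BC029722 (0.90), among 12908 genes. These are the highest values of a ranking over 10 libraries and carry no test.

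Per the file annotation (mm10), the genes lie apart in the genome except Dcn and Lum, neighbours on the plus strand of chromosome 10 at 97479500 to 97518162 and 97565501 to 97572703. Pdgfra lies on chromosome 5 (75152291 to 75198204), Dpp4 on chromosome 2 (62330073 to 62412231), Pi16 on chromosome 17 (29318882 to 29328902), Ly6a on chromosome 15 (74994877 to 74998031) and Thy1 on chromosome 9 (44043384 to 44048579). Cd34 (194938821 to 194961292) and Fn1 (71585473 to 71653234) share chromosome 1. The position of Pdgfrb is not listed here. Of the counted exon bases, 148 of Cd34 also belong to Gm16897 and 30 of Pdgfra to Mir7025, so a read there counted for both genes.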

How the data were processed

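Counts per gene were deposited for 20 libraries. Per the file headers, the authors made these whole-number read counts with featureCounts 1.4.4 over exons of the UCSC mm10 annotation, using primary alignments only, counting a read for every gene it overlapped and setting no strand option. The submitters' processing notes also name STAR 2.4.0, with no role stated, and the builds mm10 and GRCm38. The labels give about 46 M reads of 100 nt per sample.

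Groups came from the labels. Each comparison was fitted over all genes by the robust quasi-likelihood test of edgeR 4.0.16 (R 4.3.3), after filterByExpr and TMM normalization and without covariates, and p-values were adjusted by Benjamini-Hochberg with a threshold of 0.05. All 10 markers passed the filter in every comparison. CPM used TMM factors computed within a tissue, and RPKM the length given in the files. Standard errors are the log2 fold change over the root of the F statistic. Relations used log2 CPM with a prior count of 2 and permutation tests (100000 draws at 10 libraries, all arrangements below 10). No pair of libraries of a group agreed within sampling noise (smallest reduced chi-square 4.7). The scripts were tested on simulated counts with 200 changed genes per tissue. The iWAT genotype fit recovered 6% of the 1.5-fold and 34% of the 2-fold changes. The pituitary fit recovered 78% and 90%. Of the genes called, 1 of 41 in iWAT and 16 of 184 in the pituitary were false. The changed genes were drawn without regard to the markers. In iWAT the median biological coefficient of variation was 0.362 for the markers and 0.221 for all genes. Recovery of the markers themselves was not simulated. A call of 0 in iWAT therefore leaves room for changes of this size.

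The markers, the 19 other gene lists (172 genes, 171 counted) and the tests were chosen with earlier results of these data known. Genes named are the markers, Klf14, Adipoq, Gh, list genes past the threshold between labelled KO and WT or among the 3 highest per length in a tissue, and the 5 genes per tissue most like the markers. Tcf21 was named after its value was seen. Alternatives were RLE scaling, library sizes without the 20 most abundant genes, no filter and a filter of 1 CPM, DESeq2 1.42.0, limma voom 3.58.1, a covariate for age, the mice of 21 weeks alone, 1 fit over 20 libraries, a threshold of 0.1, a prior count of 0.5, rank correlation, the title number as a block and leaving out each library. Those for the marker pairs were added after the data were seen.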

Additional observations from a re-analysis of the deposited data

Results flagged for a closer look

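Among 40 screened groups (10 markers in 4 groups of 5 libraries), 3 held 1 library far from its neighbours, by a limit that chance passes in about 1 of 20 groups. In iWAT library 49, labelled WT, Dcn was at 1499 CPM with the next at 751 CPM, a gap of 0.785 of the group's range. Fn1 was at 1346 CPM in the same library with the next at 573 CPM, a gap of 0.748 of the range. In pituitary library 48, labelled WT, Dpp4 was at 4.42 CPM with the next at 3.34 CPM, a gap of 0.734 of the range.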

How the results depend on the processing

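The numbers of markers called did not move under the alternatives run: 0 for both genotype comparisons and for their difference, and 9 for each tissue comparison, also with every library left out in turn. In iWAT the sign of a marker's labelled KO log2 fold change turned under some: Pdgfrb to 0.0016 with RLE scaling and with DESeq2, to 0.00027 without the 20 most abundant genes, to 0.084 with age, to 0.025 in mice of 21 weeks and to 0.026 in 1 fit over 20 libraries. With limma voom Pdgfra had 0.045, Pi16 0.304, Cd34 0.081 and Fn1 0.043, with age Pi16 had 0.145, and in mice of 21 weeks Dpp4 had 0.197, Pi16 0.081, Dcn 0.107 and Thy1 0.18. In the pituitary the turned values were -6e-04 for Pdgfra with limma voom, -0.166 for Lum with age, and -0.136 for Ly6a, -0.124 for Lum and -0.10 for Fn1 in mice of 21 weeks. The cause was not tested.

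Leaving out each library in turn gave iWAT ranges of -0.24 to 0.12 (Pdgfra), -0.08 to 0.15 (Pdgfrb), -0.25 to 0.55 (Pi16), -0.26 to 0.23 (Cd34), -0.31 to 0.19 (Ly6a), -0.36 to 0.084 (Dcn), -0.67 to 0.081 (Lum), -0.40 to 0.34 (Fn1) and -0.30 to 0.20 (Thy1), while Dpp4 stayed at -0.38 to -0.12. In the pituitary the ranges were -0.085 to 0.09 (Pdgfra), -0.044 to 0.076 (Pdgfrb), -0.05 to 0.33 (Pi16), -0.0038 to 0.22 (Ly6a), -0.031 to 0.11 (Dcn), -0.11 to 0.13 (Lum), -0.029 to 0.30 (Fn1) and -0.095 to 0.05 (Thy1). The tissue value of Thy1 ran from -0.14 to 0.26 (labelled WT) and from -0.077 to 0.36 (labelled KO). Relations with a cell type score past the threshold numbered 4 by Spearman's rho and 1 to 10 with a library left out, and marker pairs 9 and 8 to 21. Genes called in the pituitary numbered 288 with DESeq2, 192 at a threshold of 0.1, 44 with age, 5 in mice of 21 weeks, 1 in the fit over 20 libraries and 50 to 112 with a library left out, against 90.

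Same-numbered libraries of the 2 tissues had weakly correlated deviations (r of -0.071 to 0.12, over 0.1 for 1 of 10 numbers). Each iWAT library was set against the 5 pituitary libraries with its genotype label. The value was highest with the own number for 7 of 10, a hint from the data and not from the design. Libraries of the same number also share genotype label and age, but no label says that they come from the same animal. As 9 of 10 lay at or below 0.1, the numbers were not used as pairs in the main fits. Low values between 2 unlike tissues cannot show that the libraries are unpaired. The main tissue comparisons and the test of the difference treated same-numbered libraries as independent. With the number as a replicate block, 9 markers were called in each tissue comparison and 0 for the difference, and Thy1 in the labelled KO tissue comparison had -0.13. Pituitary Dpp4 rested on 37 to 72 counts per library and Pi16 on 39 to 106. What limits each comparison was not tested.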
